A study of Homo sapiens with 6 samples.

Results

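Matrix metalloproteinases (MMPs) and their tissue inhibitors (TIMPs) were described here in MDA-MB-231 cells, a triple-negative breast cancer (TNBC) line, and in a line derived from them that resists Adriamycin (ADR, doxorubicin). The members were the 10 rows of the count table named MMP1, MMP2, MMP3, MMP7, MMP9, MMP10, MMP13, MMP14, TIMP1 and TIMP3, of 58735 genes in all. RNA sequencing had been performed on 3 libraries of parent cells, labelled WT, and 3 libraries of ADR-resistant (ADRr) cells, labelled ADR resistant. According to the methods of the study, ADRr cells came from parent cells kept under rising doses of ADR, and limiting dilution was then used to obtain single clones, so the ADRr group may stand for 1 clone. The labels give no ADR dose at harvest, and the series text mentions 3 time points that no sample label names, so all libraries of a line entered as replicates. Nothing says that they came from separate cultures, and the p-values then measure only the spread between these libraries, which may be technical.

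MMPs are zinc-dependent endopeptidases that are made as inactive proenzymes and, once the propeptide is removed, cleave collagens, laminins and other proteins of the extracellular matrix. Collagenases cut fibrillar collagen, gelatinases take on denatured collagen and basement membrane collagen, stromelysins and matrilysin have a broad range of substrates, and membrane-type MMPs act at the cell surface. TIMPs bind the active site of MMPs and block it, and TIMP2 also takes part in the activation of the MMP2 proenzyme by MMP14. In breast cancer these enzymes are known for their part in invasion and in the remodelling of the stroma. RNA counts hold no value for proenzyme cleavage or enzyme activity.

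Total counts ranged from 15983985 to 18272314 per library. Levels of a gene between libraries are given as CPM, its counts scaled by library size, and where no read was counted, the upper limit was set at 3 counts, which is 0.164 to 0.188 CPM and covers counting error only. Of the line's markers, VIM, CD44, CAV1, AXL and MSN were abundant in both groups, the lowest mean being 349 CPM for VIM in ADRr cells, though CAV1, AXL and VIM were called lower there, at log2 fold changes of -1.30, -0.62 and -0.56. ESR1 and PGR, the hormone receptors that TNBC lacks, had at most 1 count in any library, while ERBB2, the receptor that is not amplified in TNBC, was detected at 120 CPM in parent and 50.7 CPM in ADRr cells (log2 fold change -1.25, called lower). Of 10 leukocyte markers, 6 had at most 3 counts in every library, among them PTPRC, LYZ and TYROBP, and the summed level of the 10 was 8.58 to 12.4 CPM in parent and 7.27 to 7.75 CPM in ADRr cells, most of it CD14 and CSF1R. CD53 had 0 counts in all parent libraries and 4, 1 and 3 in ADRr libraries, and ITGAM had 0 in parent and 6, 6 and 7 in ADRr libraries. Of 8 fibroblast markers, 4 had at most 3 counts in every library, DCN had 0, and their sum was 65.4 to 69.4 CPM in parent and 10.6 to 12.6 CPM in ADRr cells, most of it PDGFRB. In bulk RNA, a different share of cells that express a gene and a different amount of its RNA per cell cannot be told apart.

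The 10 members fell into 3 groups by level. MMP14, TIMP1 and TIMP3 were abundant in both cell lines. MMP1 and MMP9 were near the detection limit in parent cells and clearly expressed in ADRr cells. MMP2, MMP7, MMP10 and MMP13 had at most 4 counts in every library, and MMP3 lay just above them with at most 19. The filter on low counts kept 15242 genes, 5 of the members among them. MMP1, MMP9, MMP14 and TIMP1 were called higher in ADRr cells and 0 members were called lower, where a call needed a Benjamini-Hochberg adjusted p up to 0.05 in edgeR's quasi-likelihood test and a change of 1.2-fold or more. By the same rule 29.2% of all tested genes were called higher and 29.6% lower. All 5 tested members had a positive log2 fold change, so no p threshold could give a lower one. DESeq2 also called 0 lower. In CPM the groups did not overlap for any of the 5 tested members, with ADRr cells higher, as was the case for 34.5% of all tested genes, while 34.7% were lower without overlap. MMP1 and MMP9 passed the filter only through their ADRr libraries, so their number cannot be read as a share of the family.

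Upstream sequence was at hand for 5 members, and it is shown because these 5 include both well expressed members and members at the floor. The 250 bases before the annotated start of each gene (RefSeq, GRCh38.p14) are printed 5′ to 3′ on the strand of the gene. Capitals mark motifs, which were searched on both strands, so that some capitals are the reverse complement of the letters given here. The AP-1 motif, bound by dimers of JUN and FOS proteins, was searched as TGANTCA. The STAT motif, the site of the cytokine-activated STAT factors, was searched as TTCNNNGAA. The ETS-type motif of the ETS factor family was searched as AGGAAG. The TATA box, which places the start of transcription in many inducible genes, was searched as TATAAA. The GC box of SP1 and related factors, searched as GGGCGG, was added after the sequences had been read. No matches overlapped each other. MMP7 and MMP10, both at the floor in all libraries, come first, followed by the abundant MMP14 and TIMP3. The window of TIMP1 (chrX:47582186-47582435) reaches into the gene as the count table places it and is described but not printed. The printed windows of MMP7, MMP14 and TIMP3 also reach into the genes as placed there, by fewer bases.
MMP7, minus strand, chr11:102530748-102530997: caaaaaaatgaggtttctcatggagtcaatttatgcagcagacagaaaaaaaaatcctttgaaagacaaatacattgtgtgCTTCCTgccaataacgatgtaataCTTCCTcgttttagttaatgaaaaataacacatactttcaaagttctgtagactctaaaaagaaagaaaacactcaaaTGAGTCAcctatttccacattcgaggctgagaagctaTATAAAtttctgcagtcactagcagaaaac
MMP10, minus strand, chr11:102780629-102780878: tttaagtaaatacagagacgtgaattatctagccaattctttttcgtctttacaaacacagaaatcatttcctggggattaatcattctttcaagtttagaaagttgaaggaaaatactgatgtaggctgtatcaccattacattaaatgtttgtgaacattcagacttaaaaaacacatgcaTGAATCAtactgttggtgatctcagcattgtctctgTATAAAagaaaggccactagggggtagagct
MMP14, plus strand, chr14:22836335-22836584: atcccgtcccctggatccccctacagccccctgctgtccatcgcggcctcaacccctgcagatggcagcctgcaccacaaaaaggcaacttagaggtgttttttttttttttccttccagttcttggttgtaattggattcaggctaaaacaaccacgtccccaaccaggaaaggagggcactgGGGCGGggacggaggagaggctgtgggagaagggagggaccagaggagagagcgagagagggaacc
TIMP3, plus strand, chr22:32801455-32801704: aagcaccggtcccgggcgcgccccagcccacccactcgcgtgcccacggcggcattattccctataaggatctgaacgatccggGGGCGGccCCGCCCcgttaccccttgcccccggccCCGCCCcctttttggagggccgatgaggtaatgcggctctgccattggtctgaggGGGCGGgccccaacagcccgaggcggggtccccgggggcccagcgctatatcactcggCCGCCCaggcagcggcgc

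The 2 members at the floor carried the features usually named for inducible MMP genes. MMP7 and MMP10 each had an AP-1 motif at 67 to 61 bases before the start, TGAGTCA in MMP7 and TGAATCA in MMP10, and a TATA box, 30 to 25 bases before the start in MMP7 and 31 to 26 in MMP10. AP-1 motifs were found in 6.57% and TATA boxes in 10.7% of the 35114 promoters of the same length. MMP7 also had 2 ETS-type motifs and TIMP1 had 1, which 28.7% of promoters hold. The GC content was 33.6% in MMP7 and 34.4% in MMP10, below the lower quartile of all promoters (46.4%). MMP14, TIMP1 and TIMP3 had neither an AP-1 motif nor a TATA box in this window, and no member had a STAT motif, which 6.57% of promoters hold. MMP14 had 1 GC box, TIMP1 had 2 and TIMP3 had 5, and 42.6% of promoters had at least 1. Their GC contents were 56.8%, 64.8% and 72.4%, against a median of 58% over all promoters. These matches describe letters in a window and say nothing of binding. MMP1, MMP2, MMP3, MMP9 and MMP13 have no entry.

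MMP1, interstitial collagenase, which makes the first cut in fibrillar collagen, had the largest increase of the family. The gene (ENSG00000196611, GRCh38 chromosome 11, 102789920 to 102798160, minus strand) was seen with 17, 2 and 15 counts in parent cells (replicates 1 to 3) and with 2077, 1812 and 2025 in ADRr cells. The groups were far apart, and the ADRr libraries were close to each other. Parent replicate 2 was the lowest, with a count under the floor. MMP1 rose from 0.666 ± 0.475 to 112 ± 2.79 CPM (mean ± SD, n = 3 per line), which is 7.35 as a log2 fold change (95% confidence interval 7.02 to 7.69, adjusted p = 2.95e-20 from edgeR). It ranked 4 of all 15242 tested genes by increase. The size rests on few parent counts, and the log2 fold change was 7.76 without parent replicate 1 and 6.89 without parent replicate 2. Both values lie outside the interval given above, which is likely too narrow for this gene. DESeq2 gave 7.39 with a standard error of 0.569, against 0.161 behind that interval.

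MMP9, gelatinase B, which degrades basement membrane collagen and denatured collagen, showed the next largest increase. The gene (ENSG00000100985, chromosome 20, 46008908 to 46016561, plus strand) had 9, 11 and 18 counts in parent replicates and 234, 220 and 214 in ADRr replicates. All ADRr libraries lay above all parent libraries. MMP9 rose from 0.752 ± 0.246 to 12.7 ± 0.922 CPM, a log2 fold change of 4.05 (95% confidence interval 3.62 to 4.49, adjusted p = 1.04e-13 from edgeR), and 53 tested genes increased more. MMP9 is also made by leukocytes, whose markers in these libraries are given above. Of the exon bases of MMP9, 18.4% are also exon of SLC12A5-AS1 on the other strand, which had 0 counts in all parent libraries and at most 1 in an ADRr library. For MMP1, 7.61% of exon bases are shared with WTAPP1, a pseudogene on the other strand with 0 counts in parent and 2, 1 and 3 in ADRr libraries. Whether counting used strand is not given in the sources used here, and how reads in the shared bases were assigned is not known.

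**Figure D1:**
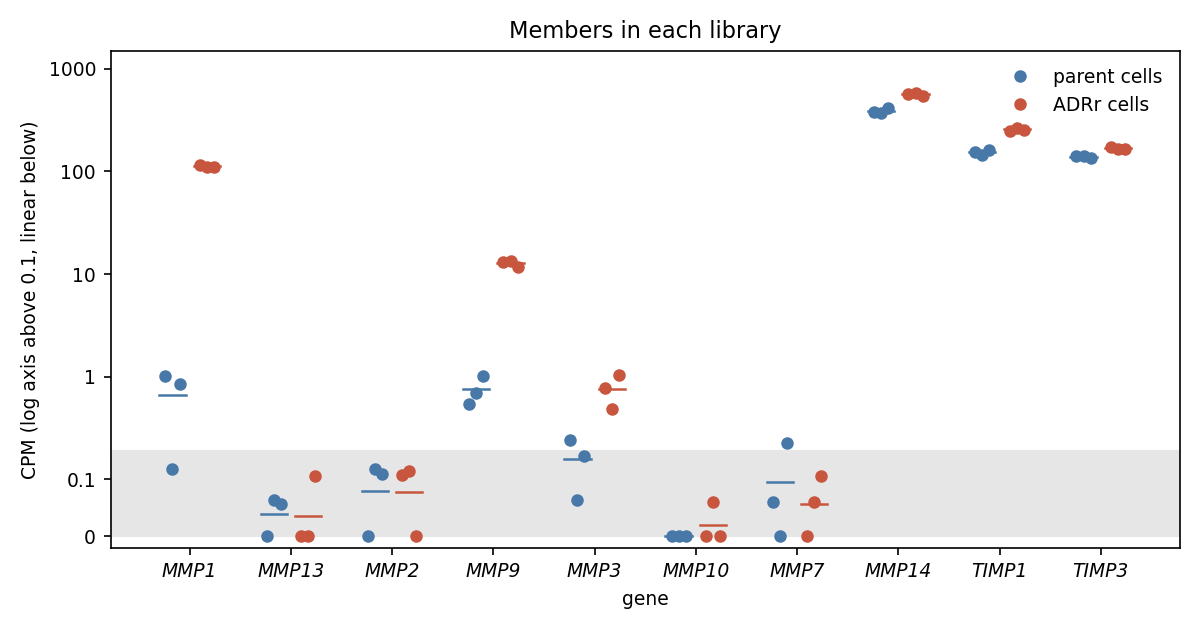
CPM of the 10 members in each library (log axis above 0.1, linear below), with 3 parent libraries in blue, 3 ADRr libraries in red and a bar at each group mean; the grey band marks values up to 0.188 CPM, the most that a count of 0 allows. MMP1 and MMP9 stand apart between the groups, MMP14, TIMP1 and TIMP3 are high in both, and MMP2, MMP7, MMP10 and MMP13 lie in or next to the band.

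MMP14 (MT1-MMP), the membrane-anchored collagenase that also activates the MMP2 proenzyme, was the most abundant MMP in both lines. The gene (ENSG00000157227, chromosome 14, 22836557 to 22849027, plus strand) had 6366, 5915 and 7358 counts in parent replicates and 10212, 9604 and 10056 in ADRr replicates. The groups did not overlap. MMP14 rose from 391 ± 23.7 to 567 ± 19.2 CPM, a log2 fold change of 0.54 (95% confidence interval 0.43 to 0.64, adjusted p = 3.88e-09 from edgeR). This is a modest change in this comparison, since 43.8% of all tested genes had a larger absolute log2 fold change.

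TIMP1, a secreted inhibitor of most MMPs, rose as well. The gene (ENSG00000102265, chromosome X, 47582313 to 47586789, plus strand, within the span of SYN1 on the other strand, with no shared exon bases) had 2564, 2299 and 2836 counts in parent replicates and 4471, 4358 and 4704 in ADRr replicates. All ADRr libraries were higher. TIMP1 rose from 153 ± 8.04 to 257 ± 8.94 CPM, a log2 fold change of 0.74 (95% confidence interval 0.63 to 0.86, adjusted p = 3.84e-11 from edgeR).

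TIMP3, the inhibitor that stays bound to the matrix and also blocks ADAM proteases, lay at the threshold. The gene (ENSG00000100234, chromosome 22, 32801701 to 32863043, plus strand, within the span of SYN3 on the other strand, with no shared exon bases) had 2353, 2255 and 2398 counts in parent replicates and 3093, 2684 and 3074 in ADRr replicates. Its groups did not overlap, at 136 to 142 CPM in parent and 164 to 172 CPM in ADRr cells. The log2 fold change of 0.261 (95% confidence interval 0.15 to 0.37, adjusted p = 1.36e-04 from edgeR) was just under the 0.263 that a fold change of 1.2 requires, so TIMP3 was not called. In 8 of 15 alternatives it passed that line, among them those without parent replicate 1, parent replicate 2 or ADRr replicate 2, with log2 fold changes between 0.239 and 0.288 over all of them.

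MMP3, stromelysin 1, which cleaves many matrix proteins and activates other MMP proenzymes, was too low to be tested. It had 4, 1 and 3 counts in parent replicates and 14, 8 and 19 in ADRr replicates. Every ADRr library was above every parent library. Over summed counts, 8 against 41, the ratio of ADRr to parent per total count was 4.96 (95% exact binomial interval 2.29 to 12.2, counting error only). With no filter edgeR gave a log2 fold change of 2.22 (adjusted p = 0.00293), where 16.3% of 28976 genes were called higher, and DESeq2 gave 2.28 (adjusted p = 0.0199). MMP3 is the next MMP gene to MMP1 on one side on chromosome 11. In FPKM, MMP3 was at 0.0302 to 0.115 in parent cells, which overlaps the 0.0627 to 0.509 of MMP1, and at 0.234 to 0.498 in ADRr cells, below the 55.0 to 57.6 of MMP1.

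The 4 remaining members were not detectable above the floor, or barely so. MMP2, gelatinase A, had 0, 2 and 2 counts in parent and 2, 2 and 0 in ADRr replicates. MMP7, matrilysin, had 1, 0 and 4 counts in parent and 0, 1 and 2 in ADRr replicates. MMP13, collagenase 3, had 0, 1 and 1 counts in parent and 0, 0 and 2 in ADRr replicates. MMP10, stromelysin 2, was seen with 1 count in ADRr replicate 2 alone. At this depth no difference between the lines was detectable for these genes. The ratio of summed counts was 0.967 for MMP2 (95% interval 0.18 to 5.19), 0.58 for MMP7 (0.0901 to 2.98) and 0.967 for MMP13 (0.0701 to 13.3), so a change of several fold in either direction cannot be told apart from none.

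To place the members within the whole family, the 16 other MMP genes were examined. MMP12, MMP20, MMP26 and MMP27 had 0 counts in all 6 libraries. The filter kept 6, of which 1 was called higher and 4 lower (16.7% and 66.7%, against 29.2% and 29.6% of all tested genes), or 3 lower without parent replicate 3, with a median log2 fold change of -1.04 against -0.0061 for all tested genes. MMP19, a broadly expressed secreted MMP, was the one that rose, from 158, 150 and 152 counts in parent to 238, 266 and 311 in ADRr replicates (log2 fold change 0.75, adjusted p = 1.19e-05 from edgeR).

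Of the membrane-type MMPs other than MMP14, 3 were called lower and 0 higher, where 29.6% and 29.2% of all tested genes were. MMP15 (MT2-MMP) had 434, 332 and 486 counts in parent and 131, 120 and 101 in ADRr replicates, a log2 fold change of -1.90 (95% confidence interval -2.17 to -1.63, adjusted p = 1.46e-11 from edgeR). MMP16 (MT3-MMP) changed by -2.07 (adjusted p = 8.19e-09), from 102, 129 and 142 to 37, 26 and 30 counts. MMP24 (MT5-MMP) fell 2.00-fold (adjusted p = 4.82e-06), from 179, 162 and 172 to 76, 100 and 93 counts. In each of these 3 genes all ADRr libraries lay below all parent libraries. MMP17 (MT4-MMP) was not called, at -0.16 (95% confidence interval -0.56 to 0.24, adjusted p = 0.477). MMP25 (MT6-MMP) had 4 to 12 counts and was not tested.

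MMP11, stromelysin 3, was called lower at -1.07 (adjusted p = 0.00593), but its groups overlapped. It had 52, 43 and 100 counts in parent and 52, 17 and 28 in ADRr replicates. Without parent replicate 3, the highest, MMP11 was not called, at -0.68 (adjusted p = 0.0721 from edgeR). Among genes too low to test, MMP8, neutrophil collagenase, had 1, 1 and 7 counts in parent and 0, 0 and 1 in ADRr replicates. MMP21 had at most 4 counts in a library and MMP28 had 1 count in all. MMP23B had 8, 6 and 13 counts in parent and 3, 2 and 0 in ADRr replicates, a ratio of 0.179 (0.0539 to 0.472). With no filter edgeR called it lower (log2 fold change -2.41, adjusted p = 0.0134), as it did 16.4% of 28976 genes. DESeq2 gave -2.48 (adjusted p = 0.0453). Its pseudogene copy MMP23A had 0, 5 and 1 counts in parent and 15, 1 and 3 in ADRr replicates, a ratio of 3.06 (1.18 to 9.37), and was not called by edgeR with no filter (adjusted p = 0.222). Reads of these near-identical copies may have been split between them, so both are uncertain.

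The inhibitors did not move together either. TIMP2, the inhibitor that forms a complex with MMP14 and the MMP2 proenzyme, fell from 12643, 11641 and 12567 counts in parent to 10067, 9082 and 10337 in ADRr replicates. All ADRr libraries were lower, and the log2 fold change was -0.40 (95% confidence interval -0.49 to -0.30, adjusted p = 6.11e-08 from edgeR). RECK, a membrane-anchored inhibitor of MMP2, MMP9 and MMP14, had 555, 544 and 538 counts in parent and 213, 158 and 221 in ADRr replicates, a log2 fold change of -1.55 (95% confidence interval -1.76 to -1.34, adjusted p = 7.18e-12 from edgeR). TIMP4 changed by -1.32 (adjusted p = 0.00155), from 47, 32 and 42 to 26, 11 and 14 counts. TFPI2, a Kunitz-type inhibitor of plasmin and other serine proteases that also acts on some MMPs, had 4764, 4661 and 5128 counts in parent and 21596, 19909 and 22559 in ADRr replicates. Its log2 fold change was 2.06 (95% confidence interval 1.97 to 2.16, adjusted p = 2.98e-20 from edgeR). A2M and PZP, the plasma inhibitors that trap proteases, had 0 counts throughout. Of these 6 inhibitors 4 were tested, with 1 called higher and 3 lower (25% and 75%, against 29.2% and 29.6% of all tested genes).

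**Figure D2:**
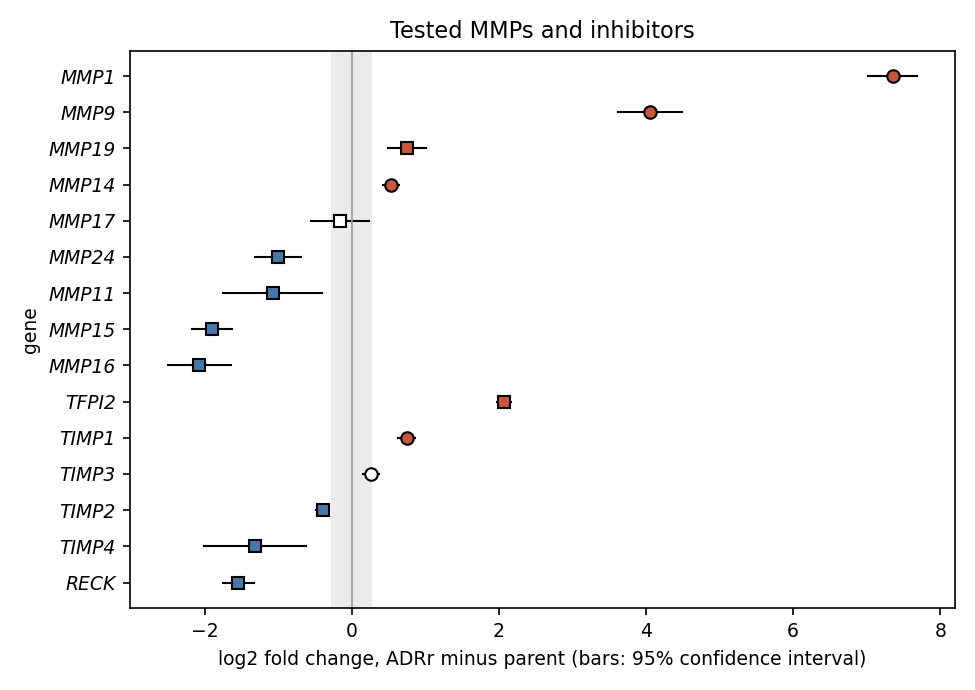
Log2 fold change (ADRr minus parent, edgeR) with 95% confidence interval of the 15 MMPs and inhibitors that were tested; circles are the 10-gene set's tested members, squares other family genes, red called higher, blue called lower, white not called, and the grey band spans a fold change of 1.2 in either direction. MMP1 and MMP9 lie far to the right at 7.35 and 4.05, TIMP3 sits on the edge of the band, and MMP15, MMP16, MMP24 and RECK lie on the left.

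Levels of MMP and TIMP genes were ranked against each other only in FPKM, which divides by gene length. The marker levels and sums given earlier are in CPM, which does not. Among MMPs and TIMPs, the order in parent cells was TIMP2 (124 to 133 FPKM), TIMP1 (92.2 to 102), MMP14 (81.9 to 91.5) and TIMP3 (28.9 to 30.3), and these ranges did not overlap. MMP15 followed with 4.64 to 6.11 FPKM, above MMP24 (2.16 to 2.39) and MMP19 (1.81 to 2.00). MMP1 (0.0627 to 0.509) and MMP9 (0.227 to 0.428) were low and overlapped each other. In ADRr cells the order became TIMP1 (158 to 169 FPKM), MMP14 (121 to 129), TIMP2 (96.5 to 98.6), MMP1 (55.0 to 57.6), TIMP3 (34.9 to 36.7) and MMP9 (4.92 to 5.64), again without overlap between neighbours. MMP1 thus stood above TIMP3 in all ADRr libraries and far below it in all parent libraries.

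The make-up of the family RNA shifted accordingly. Summed over all 24 MMP genes, parent libraries held 97.8, 94.2 and 107 FPKM and ADRr libraries 197, 198 and 189 FPKM. MMP14 made up 85.8 to 87.0% of this sum in parent cells and 63.5 to 65.0% in ADRr cells. MMP1 made up 0.0666 to 0.521% in parent cells and 27.8 to 29.3% in ADRr cells, and MMP9 0.233 to 0.401% and 2.60 to 2.85%. The share of MMP15 went from 4.93 to 5.93% in parent cells to 0.649 to 0.823% in ADRr cells.

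The summed TIMP level moved less. The 4 TIMP genes held 263, 251 and 256 FPKM in parent and 294, 301 and 299 FPKM in ADRr libraries. TIMP2 was the largest part in parent cells, with 48.3 to 50.8%, and TIMP1 in ADRr cells, with 54.0 to 56.2%, while the share of TIMP3 overlapped between the lines (11.3 to 12.0% and 11.6 to 12.5%). TIMP RNA exceeded MMP RNA in every library, by 2.40 to 2.69 times in parent and 1.49 to 1.58 times in ADRr cells. For the pair MMP14 and TIMP2, whose proteins form a complex, the ratio of FPKM was 0.635 to 0.739 in parent and 1.23 to 1.33 in ADRr cells, so the more abundant of the pair changed. These sums and ratios are given as descriptions with no test, because the genes were chosen with earlier results of these data known.

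**Figure D3:**
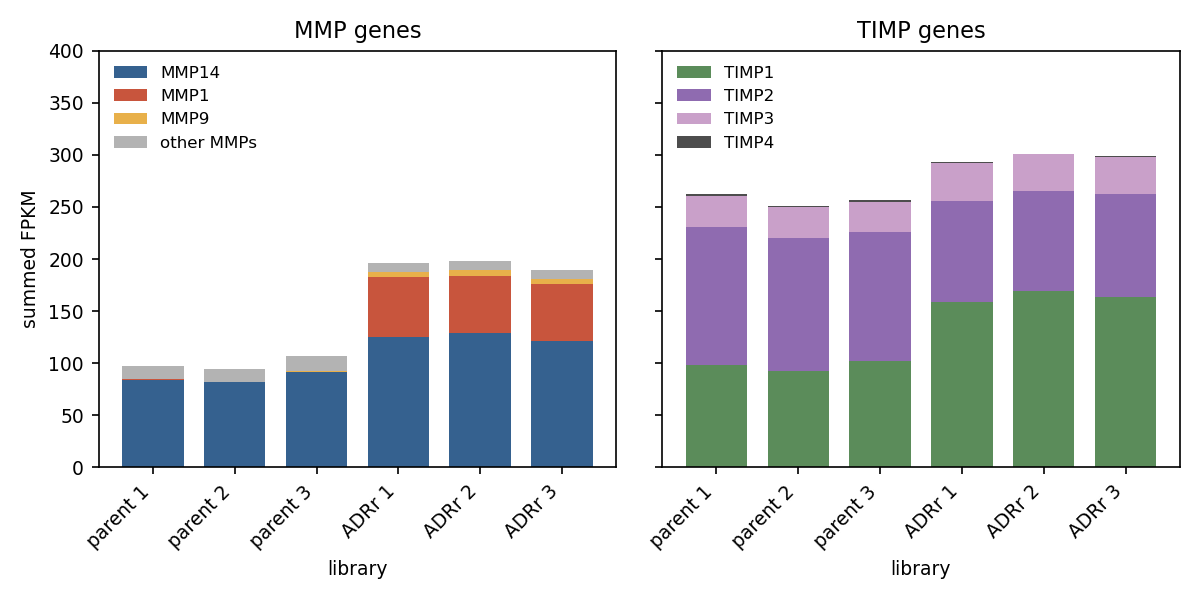
Summed FPKM of the MMP genes (left) and TIMP genes (right) in each of the 6 libraries, stacked by gene on a common axis that starts at 0. MMP1 is visible only in the ADRr libraries, where it makes up 27.8 to 29.3% of the MMP sum, and TIMP1 overtakes TIMP2 there.

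MMP1, MMP3, MMP7, MMP10 and MMP13 lie in a cluster on chromosome 11 (102520508 to 102955734) that holds 9 MMP genes in 435 kb, so the neighbours of MMP1 were examined. Of the 17 genes within the cluster, only MMP1 passed the filter. MMP10, on one side of MMP1, had 1 count in all, MMP3, on the other side, had 49, and MMP12 had 0. WTAPP1, a pseudogene that spans MMP1, had 6 counts, all in ADRr libraries. The other genes between the MMP genes had 0 counts in all libraries.

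Within 1 Mb on each side, 10 further genes were tested, of which 2 were called higher, 2 lower and 6 neither. Of all tested genes, 29.2% were called higher and 29.6% lower. BIRC3, an inhibitor of apoptosis and known NF-κB target, had 2286, 2393 and 2084 counts in parent and 5021, 4412 and 5463 in ADRr replicates (log2 fold change 1.06, adjusted p = 4.53e-12 from edgeR). YAP1, the transcriptional coactivator of the Hippo pathway, changed by 0.42 (adjusted p = 1.9e-07). BIRC2, next to BIRC3, changed by -0.42 (adjusted p = 3.29e-06) and DYNC2H1, a motor protein of cilia, by -0.51 (adjusted p = 4.86e-04). The genes around the cluster thus changed in both directions, as tested genes did in general, and by far less than MMP1.

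**Figure D4:**
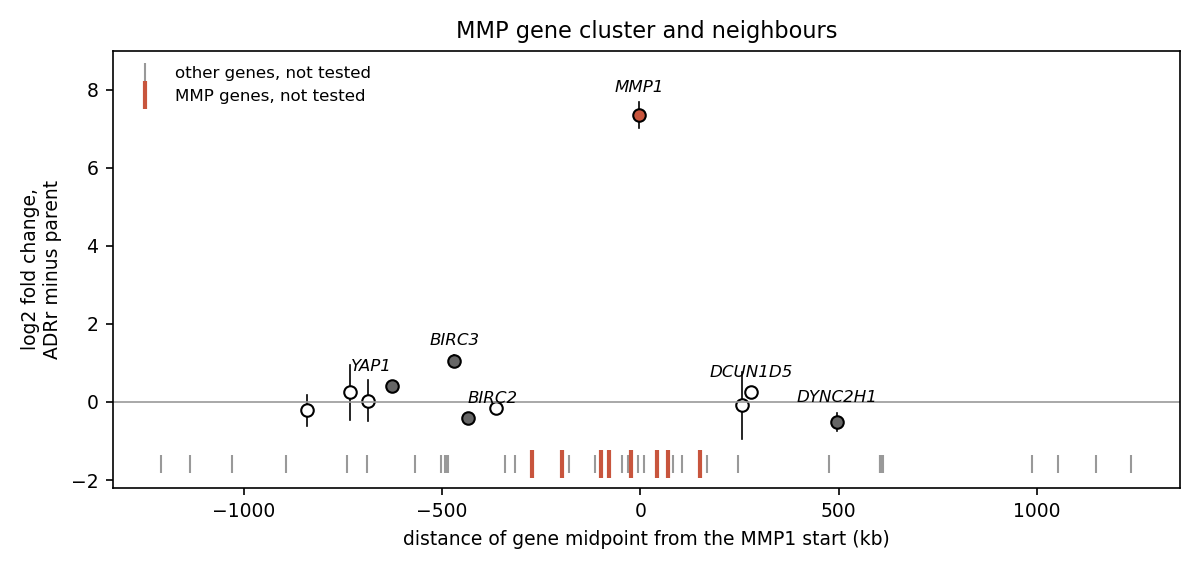
Log2 fold change (ADRr minus parent, with 95% confidence interval) of tested genes against the distance of their midpoint from the MMP1 start in kb; filled points were called, open points were not, and ticks mark genes that were not tested, MMP genes in red. MMP1 is the only tested gene of the cluster, and its tested neighbours lie between -0.51 and 1.06.

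Genes that activate, anchor or clear MMPs were summarised from a list of 20, of which 17 were tested, with 10 called higher and 6 lower (58.8% and 35.3%, against 29.2% and 29.6% of all tested genes, median log2 fold change 0.32 against -0.0061). Both plasminogen activators rose. PLAU (urokinase) had 6925, 6709 and 7686 counts in parent and 19447, 17907 and 19730 in ADRr replicates, a log2 fold change of 1.35 (adjusted p = 3.64e-17 from edgeR). PLAT (tissue plasminogen activator) changed by 2.03 (adjusted p = 2.78e-19), from 2679, 2417 and 2920 to 11477, 10661 and 12300 counts. PLG, the gene of plasminogen itself, which plasminogen activators turn into the MMP-activating protease plasmin, had 0 counts.

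Among the other genes of this list, SERPINE2, an inhibitor of plasminogen activators and thrombin, changed by 1.30 (adjusted p = 2.53e-11), and ITGA2, the collagen-binding integrin subunit to which the MMP1 proenzyme can bind, by 1.15 (adjusted p = 2.73e-13). FURIN, the convertase that cuts the propeptide of membrane-type MMPs and MMP11, had 4975, 4190 and 5511 counts in parent and 2763, 2564 and 2731 in ADRr replicates, and changed by -0.93 (adjusted p = 3.11e-12 from edgeR). LRP1, the endocytic receptor that clears MMP and TIMP complexes, changed by -1.10 (adjusted p = 8.58e-13), and SRGN, the proteoglycan serglycin, by -1.32 (adjusted p = 2.07e-13). LCN2, which forms a complex with MMP9, and CD44, a docking site for MMP9 and MMP14, changed by 0.85 and 0.80. The other docking genes listed went both ways. ITGB3 was called higher at 0.69, while ITGAV, ITGB1 and SDC1 were called lower at -0.50, -0.48 and -0.39. BSG (EMMPRIN), an inducer of MMP expression, changed by 0.32.

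Of 20 transcription factors that act on MMP promoters, all were tested, with 12 called higher, 1 lower and 7 neither. These are 60% and 5%, against 29.2% and 29.6% of all tested genes. The median log2 fold change was 0.34 against -0.0061. ATF3, a stress-induced member of the AP-1 group, had 201, 245 and 261 counts in parent and 1142, 1032 and 1058 in ADRr replicates, a log2 fold change of 2.12 (adjusted p = 3.75e-15 from edgeR). ETS1, which acts on MMP promoters together with AP-1, changed by 1.01 (adjusted p = 1.62e-14), from 3777, 3653 and 3895 to 8154, 7443 and 8396 counts. Of the classical AP-1 genes, FOSL1 was not called, with a log2 fold change of -0.058 (95% confidence interval -0.17 to 0.053, adjusted p = 0.349), FOS had 20 to 37 counts in all libraries and FOSB 10 to 18, and neither was called. JUN was at 0.24 (adjusted p = 3.15e-04), under the fold change threshold, which it passed without parent replicate 3 (0.288) or ADRr replicate 3 (0.267). JUNB, FOSL2 and JUND were called higher, at 0.49 (adjusted p = 7.31e-05 from edgeR), 0.29 (adjusted p = 1.06e-05) and 0.30 (adjusted p = 0.00865). The call of JUND was lost without parent replicate 1 (0.246), parent replicate 2 (0.194) or ADRr replicate 2 (0.201). ELF3, an epithelial ETS factor, was the gene called lower, at -1.97 (adjusted p = 1.36e-09).

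The matrix genes whose products MMPs cleave showed both directions. Of 33 listed, 24 were tested, with 7 called higher and 13 lower. These are 29.2% and 54.2%, against 29.2% and 29.6% of all tested genes, so the higher share equals that of all genes. The median log2 fold change was -0.29 against -0.0061. LAMB3, a laminin chain of epithelial basement membranes, changed by 1.76 (adjusted p = 1.24e-18 from edgeR), whereas LAMA3, another laminin chain, changed by -0.55. COL6A2 and COL6A1, chains of the microfibrillar collagen VI, changed by 2.34 (adjusted p = 1.3e-18) and 1.72 (adjusted p = 1.39e-16), and COL6A3 by -0.89.

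Of the fibrillar collagen genes, whose products include the substrates of MMP1, 3 were called lower and 0 higher, beside 29.6% and 29.2% of all tested genes. COL1A2 had 1192, 1060 and 1182 counts in parent and 4, 11 and 5 in ADRr replicates, a log2 fold change of -7.47 (adjusted p = 2.98e-20 from edgeR). Its partner COL1A1 changed by -0.62 (adjusted p = 7.49e-06), from 466, 413 and 528 to 309, 338 and 310 counts. COL5A1, a chain of the fibrillar collagen V, changed by -1.13 (adjusted p = 2.51e-15). COL5A2 was not called, and COL3A1 and COL11A1 had at most 9 counts in a library. HSPG2 (perlecan) of the basement membrane changed by -1.43 (adjusted p = 2.12e-15) and THBS1 (thrombospondin 1) by -1.70 (adjusted p = 2.14e-19).

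**Figure D5:**
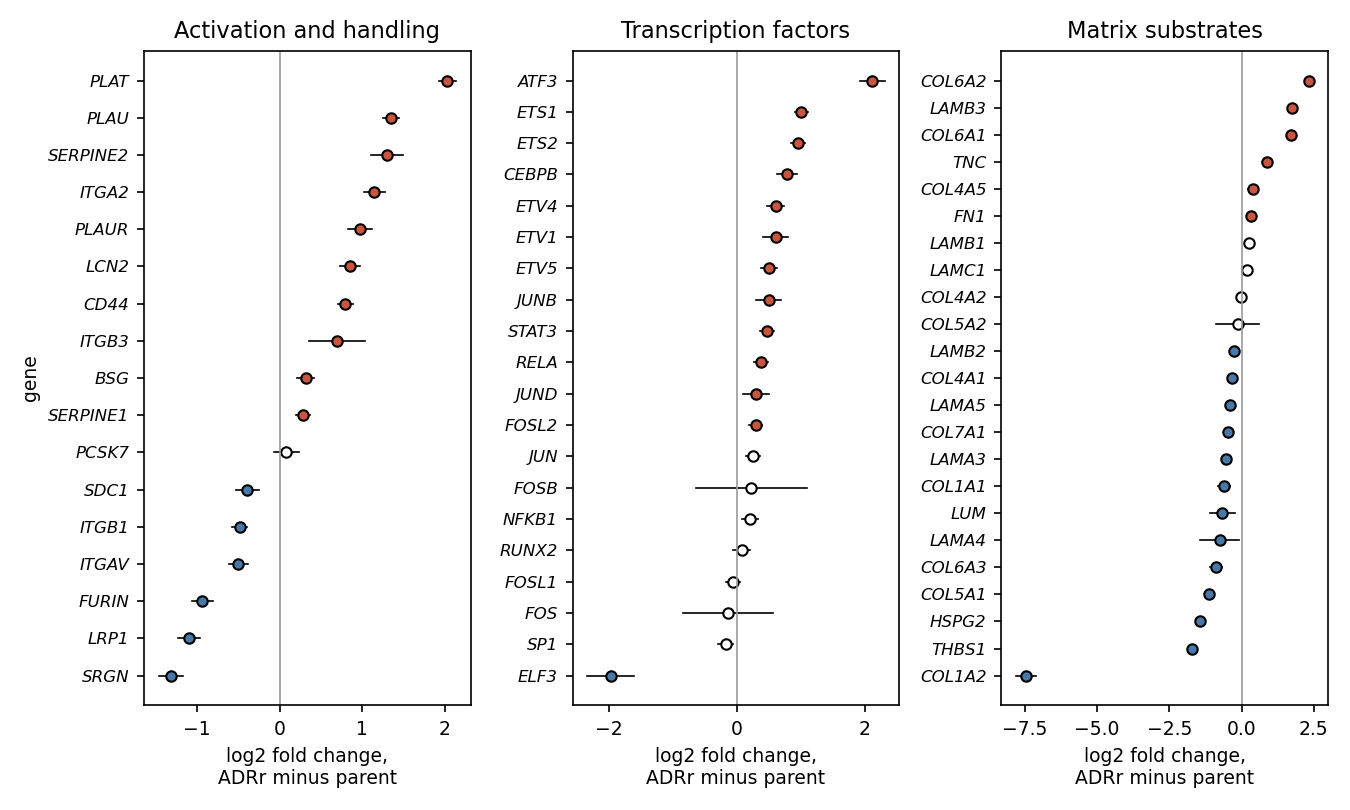
Log2 fold change (ADRr minus parent, with 95% confidence interval, edgeR) of the tested genes that activate or handle MMPs (left), of transcription factors that act on MMP promoters (middle) and of matrix substrates (right, with 1 tested gene not shown), on axes of different range; red was called higher, blue lower, white neither. PLAT leads the left panel at 2.03, ATF3 the middle one at 2.12 and COL6A2 the genes shown on the right at 2.34, and COL1A2 lies alone at -7.47.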

How the data were processed

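The authors deposited a table of counts per gene without normalization and a table of FPKM values made from them. According to the study's methods, libraries were prepared from poly(A) RNA with a CORALL kit. The submitters' processing notes name fastp, HISAT2 2.0.5, featureCounts 1.5.0-p3 and GRCh38, while strandedness is not given in the sources used here. The sample records name another cluster kit and another amount of RNA. For the 10 members, the lengths were those of GENCODE 29.

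In R 4.3.3, genes kept by filterByExpr (15242 of 58735) were normalized by TMM (factors 0.987 to 1.01) and tested between the groups with edgeR 4.0.16 (quasi-likelihood, Benjamini-Hochberg over all tested genes). A call needed an adjusted p up to 0.05 and a change of 1.2-fold or more. For the confidence intervals, the standard error was the absolute log2 fold change divided by the square root of the test's F statistic. Such intervals are approximate and can be too narrow for large changes from few counts. CPM are TMM-scaled, and the FPKM are the authors' own. On simulated data for this comparison, with 200 changed genes among 15189 tested, edgeR recovered 88.5% of them, and 6.35% of its calls were false. The simulation gave all genes the same spread between replicates and changed far fewer genes than were called in the data (58.8% of tested genes). Its rates therefore need not hold for these data. Alternatives were DESeq2 1.42.0, other scalings and filters, limma-trend (limma 3.58.1) on log2(FPKM + 1 or 0.1), other thresholds, a block for the replicate number and each library left out. No libraries of a group agreed within sampling noise (chi-square per degree of freedom 2.60 to 8.41). With 3 against 3 libraries no batch could be examined, since none is labelled.

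Genes named outside the members were every other MMP and inhibitor listed, in each list the called genes past 1 on the log2 scale (at most 4 in each direction, by size), and the genes of the MMP cluster. Others were named after their values were seen, to complete a protein complex or a role. A matrix gene that this rule would name is not reported here. The members, lists and tests were chosen with earlier results of these data known.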

Additional observations from a re-analysis of the deposited data

How the results depend on the processing

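MMP1, MMP9, MMP14 and TIMP1 were called higher under every alternative that tested them, except that MMP14 and TIMP1 were not called at an absolute log2 fold change of 1.2. Log2 fold changes lay between 5.43 and 7.76 for MMP1, 2.27 and 4.35 for MMP9, 0.50 and 0.58 for MMP14 and 0.70 and 0.78 for TIMP1. The lowest values of MMP1 and MMP9 came from log2(FPKM + 1), a scale that shrinks low genes by construction. At least 10 counts in every library left MMP1 and MMP9 out. With that filter, 3 members were called higher, and over all alternatives the count was 2 to 6. DESeq2 called 6, with TIMP3 and MMP3 added, and leaving out each library gave 4 to 6.

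An absolute log2 fold change of 1.2 gave 1114 genes higher and 972 lower in all, 2 members higher (MMP1 and MMP9), 0 other MMPs higher and 2 lower, 3 activation and handling genes higher and 1 lower, 1 transcription factor higher, and 4 substrate genes higher and 3 lower. Limma-trend on log2(FPKM + 1) or log2(FPKM + 0.1) called 2 other MMPs lower, in a table that keeps a mean of at least 0.5 FPKM. By the adjusted p alone, 2 transcription factors were lower (ELF3 and SP1). The remaining 239 of 252 recomputed counts were within 1.5 times the reported ones.

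With the replicate number as a block, 4 members were called higher and 0 lower, and the log2 fold change was 7.36 for MMP1 and 0.261 for TIMP3; all tested genes gave 4406 higher and 4464 lower. Deviations of same-numbered libraries were hardly correlated (-0.0457 to 0.00735), so no shared effect of the number was seen. This cannot tell whether same-numbered libraries were prepared together. The block changed no call of a member.

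Depth limits MMP2, MMP7, MMP10 and MMP13, for which no direction can be given, and the size of the MMP1 increase, which rests on 34 parent counts.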
